A study of Mus musculus with 12 samples.

Results

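The 10 genes described here, Tgfb1, Tgfb2, Tgfb3, Inhba, Fst, Ltbp1, Tgfbr1, Tgfbr2, Tgfbr3 and Smad7, belong to the TGF-beta and activin pathway. They were chosen by name, and their probes were found through the RefSeq transcript that the array design gives for each probe. All 10 were among the 17016 named genes on the array and among the 12438 genes kept after the filter on dim probes, with 13 probes in all. TGF-beta ligands and activins are secreted dimers that signal through paired type I and type II receptor kinases, which phosphorylate Smad2 and Smad3. TGF-beta leaves the cell in a latent complex that latent TGF-beta binding proteins hold in the extracellular matrix, and integrins that pull on this matrix can release it. In fibroblasts the pathway is known for driving the production of collagen and other matrix proteins.

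Total RNA of 12 cultures was hybridised to one-colour mouse expression arrays, 1 array for each. The mouse embryonic fibroblasts of the knockout line (KO) lack focal adhesion kinase (FAK), a tyrosine kinase at integrin adhesions encoded by Ptk2. The rescue line is the single clone DA2, which descends from such knockout cells and re-expresses FAK. KO dense and rescue dense cultures were seeded with 8200000 cells in a 10 cm dish, KO sparse and rescue sparse cultures with 410000, and all were harvested after about 24 h. Both lines grew in the same serum-containing medium, to which hygromycin B and non-essential amino acids were added for the rescue line only, so that line, clone history and these additions cannot be told apart. Each of the 4 groups had 3 cultures, 1 from each of 3 experimental days.

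The arrays lay on 5 slides. The dense and the sparse array of a line were on the same slide on each day, whereas KO and rescue arrays met on a slide on day 2 alone, and on days 1 and 3 the line effect cannot be told apart from that of the slide. The 75th percentile of spot intensity ranged between 294 and 1594 units over the arrays, 23152 to 26183 probes of each array were well above background, and no spot was saturated. In the deposited value table, the 4 columns of day 3 matched the scanner array of the other line best (r of 0.972 to 0.984, against 0.833 to 0.874 with their own), whereas the other 8 matched their own. The scanner files, in which the day 3 arrays lay with their labelled groups, were therefore used throughout. Of 2 Ptk2 probes, one averaged -1.61 in KO dense and -0.68 in rescue dense cells and -1.37 in KO sparse and 0.71 in rescue sparse cells (log2 level), while the other did not pass the test (KO minus rescue of -0.07 in dense and -0.11 in sparse cells, limma adjusted p = 0.763 and 0.648). Whether these probes fall inside the disrupted stretch is not known here, so they do not check the labels.

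The labelled cell type was checked against 11 fibroblast markers. Their summed level was 336 to 346 in KO dense and 1051 to 1904 in rescue dense cultures, and 326 to 355 in KO sparse and 1267 to 1446 in rescue sparse cultures, in multiples of each array's 75th percentile. Lum and Twist2 were not well above background on any KO array. Thy1 was not well above background on any rescue array or KO sparse array, and Lum not on any rescue sparse array. Of the fibroblast markers, 10 of 10 tested were lower in KO than in rescue cells at dense and 8 of 10 at sparse seeding (1 was higher). Of 10 mesothelial markers, all were well above background on every KO array (summed level 169 to 184 dense and 193 to 221 sparse) and 9 were called higher than in rescue cells at dense and 7 at sparse seeding (1 lower at each), whereas the rescue arrays had 25.2 to 37.3 (dense) and 28.1 to 46.1 (sparse) with Wt1, Upk3b and Lrrn4 not above background on any. The Y-linked genes Ddx3y, Kdm5d and Eif2s3y were well above background on all rescue arrays and on no KO array. Uty, also Y-linked, was well above background on the rescue dense arrays only, and Xist on no array of either line. These differences run with the line in every comparison of KO with rescue below, and their part in the results was not tested.

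Levels are given as log2 of the processed signal relative to the 75th percentile of the same array, so that 0 is the level of that percentile and a difference of 1 between groups is a doubling. Differences are log2 KO minus rescue or log2 dense minus sparse, with their standard error (SE) from a limma model of the 4 group means, and a gene was called where its p-value, adjusted by Benjamini and Hochberg over all 12438 genes, was under 0.05. Levels of different probes are not compared. In RNA from whole cultures, fewer cells that express a gene and less of its RNA in each cell cannot be told apart.

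**Figure D1:**
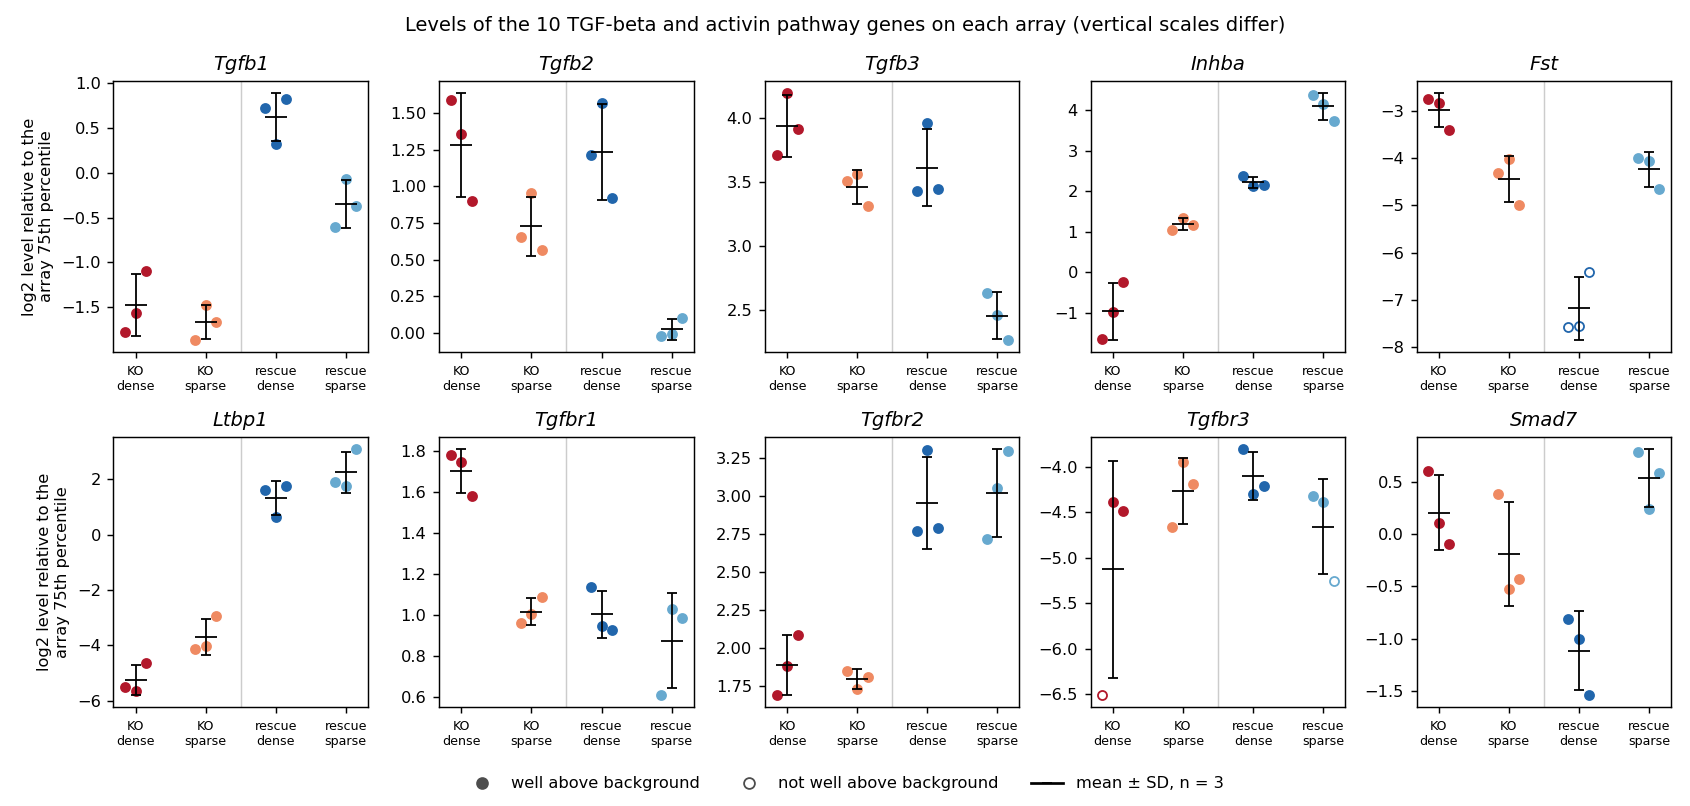
Level of each member on each of the 12 arrays (vertical axis, log2 relative to the 75th percentile of the array, with a scale of its own in each panel), by group. Points are cultures, filled where the probe was well above background, and bars give the mean and SD of 3 cultures. Ltbp1, Inhba, Tgfb1 and Tgfbr2 lay lower on every KO array than on every rescue array of the same density, and Fst was not well above background on any rescue dense array.

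Between the lines, 4 members were called at both densities, all lower in KO cells: the genes for the storage protein Ltbp1, the activin subunit Inhba, the ligand Tgfb1 and the receptor Tgfbr2. In dense cells 3 of the 10 genes were called higher in KO cells (Fst, Smad7 and, by its brighter probe only, Tgfbr1) and 4 lower, where 31.9% and 29.7% of all genes tested were called higher and lower. The groups did not overlap for 8 of the 10, against 67.1% of all genes. In sparse cells 2 were called higher (Tgfb2 and Tgfb3, both of which turned lower than in rescue cells, at -0.76 and -0.46, when arrays were scaled by spike-in RNA) and 4 lower, where 23.2% and 25.6% of all genes were called. The groups did not overlap for 6 of the 10, against 58.9% of all genes. The shares of members called were thus near those of all genes. The median difference of the members was -0.49 in dense and -0.46 in sparse cells, against 0.08 and 0.03 over all genes. Scaling by spike-in RNA moved the median of all genes to 0.37 in dense and -1.44 in sparse cells, and relative to that median Tgfb2 and Tgfb3 were at 0.68 and 0.98 in sparse cells.

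With seeding density, 6 members were called in the rescue line, where 40.0% of all genes were called. In dense cells 3 of them were higher (Tgfb1, Tgfb2 and Tgfb3, the 3 ligand genes) and 3 lower (Inhba, Fst and Smad7), where 19.0% and 21% of all genes were called higher and lower, and the groups did not overlap for 7, against 50.6% of all genes. In KO cells 2 were called higher in dense cells (Fst, and Tgfbr1 by its brighter probe only) and 2 lower (Inhba and Ltbp1, which turned to 0.36 and 0.95 when arrays were scaled by spike-in RNA, a scaling under which the median of all genes was 2.50). There 5.43% and 5.48% of all genes were called higher and lower, and the groups did not overlap for 5 members, against 38.2% of all genes. The count of 4 in KO cells fell to 1 without the array of KO dense on day 1, KO dense on day 2, KO sparse on day 1 or KO sparse on day 3, and to 2 without KO sparse on day 2, with Inhba called under each. The median difference of the members was 0.29 in KO and 0.03 in rescue cells, against -0.00 and -0.08 over all genes. The density response differed between the lines for 2 members, Fst and Smad7, both with a positive interaction term, where 11.3% of all genes had a called positive and 9.46% a called negative term.

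**Figure D2:**
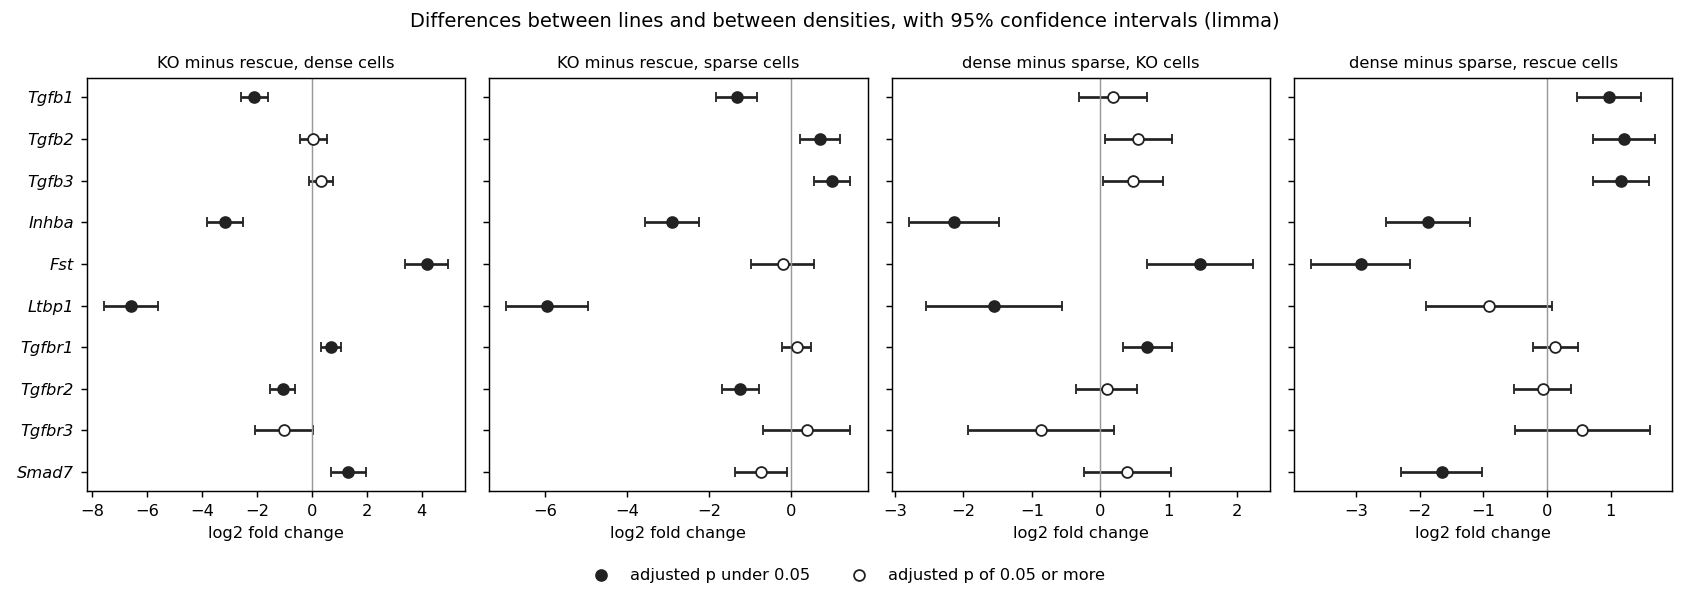
Log2 differences of the 10 members (horizontal axis, a scale of its own in each panel) between KO and rescue cells at each density and between dense and sparse cells of each line. Points are limma estimates, filled where the adjusted p was under 0.05, and bars are 95% confidence intervals. Ltbp1 lies farthest below 0 in both panels of KO minus rescue, and Fst lies above 0 in KO and below 0 in rescue cells among the density panels; scaled by spike-in RNA, Tgfb2 and Tgfb3 in sparse cells and Inhba and Ltbp1 in KO cells change sign.

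Ltbp1 encodes latent TGF-beta binding protein 1, which ties the latent ligand to the matrix. Its brighter probe had levels of -5.50, -5.64 and -4.62 in KO dense cells on the 3 days, against 1.61, 0.64 and 1.77 in rescue dense cells. In KO sparse cells the levels were -4.13, -4.01 and -2.96, against 1.89, 1.76 and 3.10 in rescue sparse cells. The highest KO level was -2.96 and the lowest rescue level 0.64, and the probe was well above background on all 12. Ltbp1 was 96.3-fold lower in KO than in rescue cells when dense (log2 -6.59, SE 0.45, limma adjusted p = 1.41e-07) and 61.7-fold lower when sparse (-5.95, SE 0.45, adjusted p = 4.5e-07). On the one slide that held both lines, the differences were -6.27 in dense and -5.77 in sparse cells. The second probe gave smaller differences in the same direction, -3.01 and -3.42. With density, Ltbp1 was at -1.55 in KO cells (SE 0.45, adjusted p = 0.0495), a call that ended without any 1 of 9 of the 12 arrays and turned to 0.95 with spike-in scaling, although dense lay below sparse on all 3 days (-1.36, -1.63 and -1.67). In rescue cells the difference was -0.91 (adjusted p = 0.133), which passed the test when the experimental day was a block (adjusted p = 0.00958). The second probe was called lower with density in both lines, by -1.33 in KO (adjusted p over all probes = 0.0293) and by -1.74 in rescue cells (0.00241).

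Among the 3 ligand genes, Tgfb1, which encodes the most widely expressed ligand, was the one called lower in KO cells. Its probe, printed as 10 spots, had levels of -1.77, -1.56 and -1.09 in KO dense cells, against 0.72, 0.32 and 0.83 in rescue dense cells, and of -1.86, -1.47 and -1.66 in KO sparse cells, against -0.61, -0.07 and -0.37 in rescue sparse cells. The groups did not overlap at either density. Tgfb1 was 4.28-fold lower in KO than in rescue cells when dense (log2 -2.10, SE 0.23, limma adjusted p = 7.24e-06) and 2.49-fold lower when sparse (-1.32, SE 0.23, adjusted p = 0.000474). The day 2 slide gave -1.89 and -1.40. Dense rescue cells had more Tgfb1 signal than sparse ones (0.97, SE 0.23, adjusted p = 0.00544), by 1.33, 0.39 and 1.19 on the 3 days. In KO cells the same difference was 0.19 (95% interval -0.31 to 0.69, adjusted p = 0.638), and the interaction of -0.78 did not pass the test (adjusted p = 0.108).

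Tgfb2 and Tgfb3 encode the other two ligands, both prominent in embryonic tissue. Tgfb2 levels were 1.59, 1.36 and 0.90 in KO dense cells, against 1.21, 1.57 and 0.92 in rescue dense cells, which overlapped, and 0.66, 0.96 and 0.57 in KO sparse cells, against -0.02, -0.01 and 0.10 in rescue sparse cells, which did not. The dense difference was 0.05 (95% interval -0.44 to 0.53, adjusted p = 0.868) and the sparse one 0.70 (SE 0.22, limma adjusted p = 0.0204). The sparse call ended with median scaling, normexp background correction, the slide as a block, or without KO sparse 2, rescue sparse 1 or rescue sparse 2 (adjusted p between 0.0524 and 0.173 over these). Tgfb3 had levels of 3.71, 4.20 and 3.92 in KO dense cells, against 3.43, 3.96 and 3.45 in rescue dense cells, again overlapping. In KO sparse cells Tgfb3 levels were 3.51, 3.57 and 3.31, all above the 2.64, 2.46 and 2.27 of rescue sparse cells. Its sparse difference was 1.01 (SE 0.20, adjusted p = 0.00131; 0.0748 with normexp background correction) and its dense one 0.33 (adjusted p = 0.177).

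In both genes the level of rescue sparse cells stood apart below the other 3 groups. Dense rescue cells were higher than sparse ones by 1.21 for Tgfb2 (SE 0.22, limma adjusted p = 0.00117) and by 1.16 for Tgfb3 (SE 0.20, adjusted p = 0.000811; 0.135 with normexp background correction), and dense lay above sparse on each day for both. In KO cells the density differences were 0.56 for Tgfb2 (adjusted p = 0.132) and 0.48 for Tgfb3 (adjusted p = 0.15), again positive on each day but not past the test. The interaction terms were -0.66 and -0.68 (adjusted p = 0.162 and 0.112), so that a difference between the lines in this density response was not shown.

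Inhba encodes the beta A subunit, which pairs with itself to form activin A. Its levels were -1.65, -0.97 and -0.25 in KO dense cells, against 2.39, 2.14 and 2.15 in rescue dense cells. In KO sparse cells they were 1.05, 1.35 and 1.16, against 4.37, 4.16 and 3.74 in rescue sparse cells. The groups stood in the order rescue sparse, rescue dense, KO sparse, KO dense, with no overlap between neighbours. Inhba was 9.06-fold lower in KO than in rescue cells when dense (log2 -3.18, SE 0.30, limma adjusted p = 2.24e-06) and 7.50-fold lower when sparse (-2.91, SE 0.30, adjusted p = 7.05e-06). The day 2 slide gave -3.11 and -2.81. Dense cells had less Inhba signal than sparse cells in both lines, by -2.14 in KO (SE 0.30, adjusted p = 0.00233), which turned to 0.36 with spike-in scaling, and by -1.87 in rescue cells (SE 0.30, adjusted p = 0.000516). The interaction was -0.27 (95% interval -1.21 to 0.66, adjusted p = 0.687).

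Fst encodes follistatin, which binds activins and blocks their access to the receptors. Its levels were -2.74, -2.83 and -3.40 in KO dense cells, whereas in rescue dense cells none of the arrays had the probe well above background (-7.57, -7.54 and -6.40). In KO sparse cells the levels were -4.32, -4.02 and -4.98, and rescue sparse cells overlapped them at -4.00, -4.07 and -4.66. Among dense cells Fst was at least 11.1-fold higher in KO than in rescue cells (limma adjusted p = 8.58e-07), and the sparse difference of -0.20 did not pass (95% interval -0.98 to 0.57, adjusted p = 0.669). Dense KO cells had more Fst signal than sparse KO cells, by 1.45 (SE 0.35, adjusted p = 0.0246), with rises of 1.58, 1.19 and 1.58 on the 3 days. This call ended without KO dense 1 or 2 or KO sparse 1 or 3 (adjusted p between 0.0664 and 0.0892). Dense rescue cells were at least 4.67-fold lower than sparse rescue cells (adjusted p = 7.51e-05). The density response thus differed in sign between the lines, with an interaction of 4.38 (SE 0.50, adjusted p = 0.000235). These density results depended on the background correction. With normexp the interaction was 0.79 (adjusted p = 0.565), the rescue difference -0.53 (0.474) and the KO difference 0.26 (0.889), while Fst in dense KO over dense rescue cells remained called at 1.28 (adjusted p = 0.0265).

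**Figure D3:**
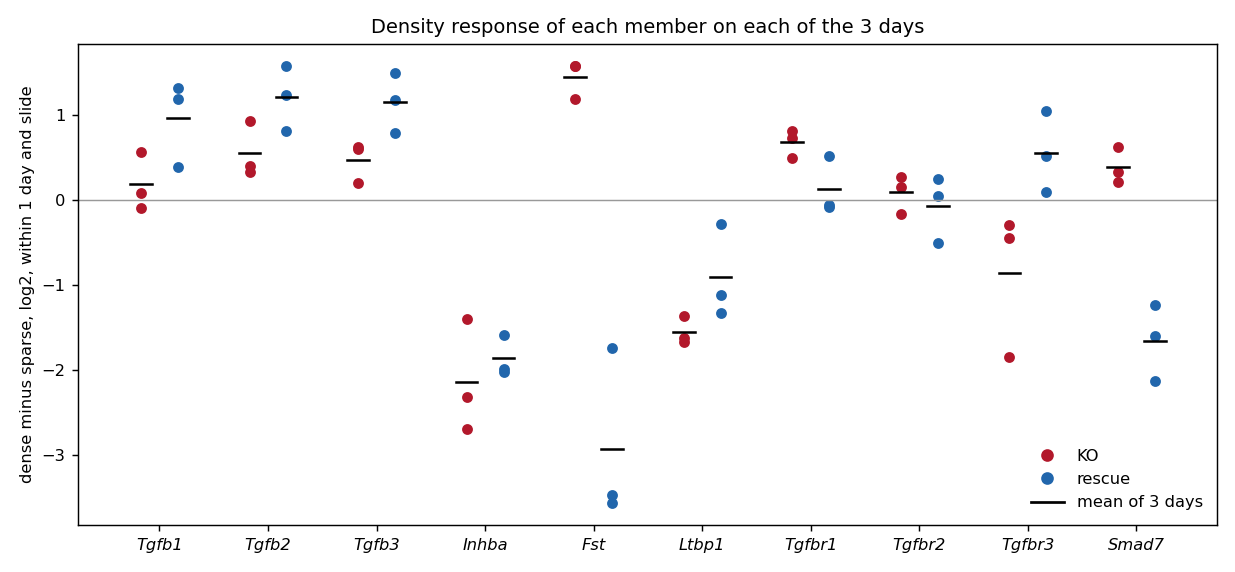
Dense minus sparse difference of each member on each of the 3 days (vertical axis, log2), for KO cells and rescue cells. Each point compares both arrays of 1 line on 1 slide, and lines give the mean of 3 days (2 of the 3 Fst points of KO cells nearly coincide at 1.58). For Fst and Smad7 all KO points lie above 0 and all rescue points below 0; Inhba lies below 0 throughout, which spike-in scaling turns in KO cells.

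Smad7 encodes an inhibitory Smad that blocks the type I receptor and is itself induced by TGF-beta. Its levels were 0.60, 0.11 and -0.09 in KO dense cells, against -0.81, -0.9998 and -1.54 in rescue dense cells. In KO sparse cells they were 0.38, -0.52 and -0.43, which overlapped with 0.79, 0.24 and 0.59 in rescue sparse cells. Rescue dense cells lay lowest of the 4 groups, without overlap. Smad7 was 2.50-fold higher in KO than in rescue cells when dense (log2 1.32, SE 0.29, limma adjusted p = 0.00192), and 1.11 on the day 2 slide. The sparse difference was -0.73 (SE 0.29, adjusted p = 0.0586), which passed with the experimental day as a block (adjusted p = 0.0115). Dense rescue cells fell by 1.66 against sparse rescue cells (log2 -1.66, SE 0.29, adjusted p = 0.00094), with -1.60, -1.24 and -2.13 on the 3 days. In KO cells the density difference was 0.40 (adjusted p = 0.415), and the interaction of 2.05 passed (SE 0.41, adjusted p = 0.00544).

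Of the receptors, Tgfbr2 encodes the type II kinase that binds the ligand first, and Tgfbr1 the type I kinase that it then activates. The brighter Tgfbr2 probe had levels of 1.69, 1.88 and 2.08 in KO dense cells, against 2.77, 3.30 and 2.79 in rescue dense cells, and 1.85, 1.72 and 1.81 in KO sparse cells, against 2.72, 3.05 and 3.29 in rescue sparse cells. KO lay below rescue on every array. The difference was -1.07 in dense cells (SE 0.21, limma adjusted p = 0.000711; 0.0558 with spike-in scaling) and -1.23 in sparse cells (SE 0.21, adjusted p = 0.000371). On the day 2 slide it was -1.42 and -1.33. By this probe density made no difference that passed, with 0.09 in KO cells (95% interval -0.36 to 0.54) and -0.07 in rescue cells (-0.52 to 0.38). A dimmer probe, designed to another transcript of the gene, also lay lower in dense KO cells (-1.10, adjusted p over all probes = 0.0077), while its sparse difference of -0.35 did not pass. With density the dimmer probe was called lower in dense than in sparse KO cells (-1.13, adjusted p over all probes = 0.031), so the probes disagreed there. Its density difference in rescue cells, -0.39, did not pass. The dimmer probe was well above background on 10 of the 12 arrays, and on 2 arrays of each KO group.

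The 2 Tgfbr1 probes disagreed. The brighter one had levels of 1.78, 1.74 and 1.58 in KO dense cells, above all other groups. These were 1.13, 0.95 and 0.93 in rescue dense cells, 0.96, 1.00 and 1.08 in KO sparse cells, and 0.61, 1.03 and 0.99 in rescue sparse cells. By this probe Tgfbr1 was higher in dense KO than in dense rescue cells (0.70, SE 0.16, limma adjusted p = 0.00269; 0.0638 with normexp and 0.0658 with the slide as a block) and higher in dense than in sparse KO cells (0.69, SE 0.16, adjusted p = 0.0219). The KO density call ended without any 1 of the KO arrays except KO dense 3 (adjusted p between 0.0566 and 0.0847). The dimmer probe showed the opposite density difference in KO cells, with levels of -3.69, -4.03 and -3.79 when dense, against -2.15, -2.10 and -2.17 when sparse (difference -1.70, adjusted p over all probes = 0.0212). Its dense KO minus rescue difference was 0.77 and did not pass (adjusted p over all probes = 0.127). Its sparse KO minus rescue difference was 1.47 (adjusted p = 0.0112), where the brighter probe gave 0.14. A direction of Tgfbr1 with density in KO cells therefore cannot be given from this array. Both probes carry the same RefSeq transcript in the design.

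**Figure D4:**
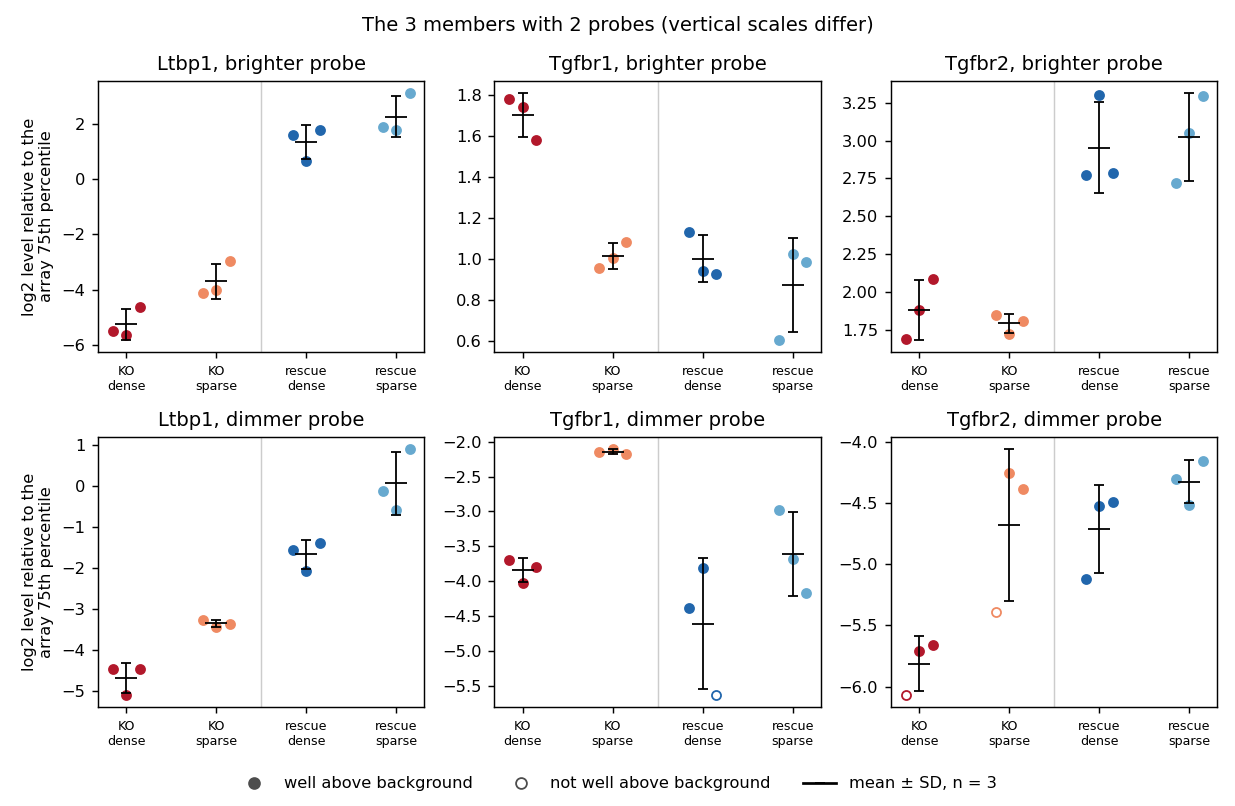
Levels of the brighter (top) and the dimmer probe (bottom) of Ltbp1, Tgfbr1 and Tgfbr2 on each array (vertical axis, log2 relative to the 75th percentile of the array, with a scale of its own in each panel). Points are cultures, open where not well above background, and bars give the mean and SD of 3 cultures. The Ltbp1 probes place KO below rescue cells alike, while the Tgfbr1 probes move in opposite directions between KO dense and KO sparse cells.

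Tgfbr3 encodes betaglycan, a co-receptor that presents the ligand, Tgfb2 above all, to the kinases. It was dim, and well above background on 10 of the 12 arrays. Its levels were -6.51, -4.39 and -4.48 in KO dense cells, against -3.80, -4.30 and -4.21 in rescue dense cells, and -4.66, -3.95 and -4.19 in KO sparse cells, against -4.32, -4.39 and -5.26 in rescue sparse cells. The lowest KO dense and the lowest rescue sparse value were the 2 not well above background. KO dense lay below rescue dense cells without overlap, while the sparse groups overlapped. None of the comparisons passed, and the intervals were wide: -1.03 in dense cells (95% interval -2.09 to 0.04, adjusted p = 0.0864), and 0.39 in sparse cells (-0.67 to 1.46).

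Promoter windows were taken from RefSeq (mouse build GRCm38.p6, 250 bases upstream of an annotated start, given on the strand of the gene). A filter on chromosome was applied to the member windows and not to the wider set of windows. Windows of 6 of the 10 members were used, 8 windows in all, and none of Tgfb3, Fst, Tgfbr3 or Smad7. Printed are those of the 4 members that were lower in KO cells at both densities, with the more upstream of 2 windows for Ltbp1, and that of Tgfb2, which was not lower. They lie at chr7:25686752-25687001 (Tgfb1, plus strand), chr13:16011601-16011850 (Inhba, plus strand), chr17:75005279-75005528 (Ltbp1, plus strand), chr9:116175364-116175613 (Tgfbr2, minus strand) and chr1:186705990-186706239 (Tgfb2, minus strand). Capitals mark matches to the Smad box CAGAC and to TGACG, the half-site of the cyclic AMP response element, on either strand.
Tgfb1: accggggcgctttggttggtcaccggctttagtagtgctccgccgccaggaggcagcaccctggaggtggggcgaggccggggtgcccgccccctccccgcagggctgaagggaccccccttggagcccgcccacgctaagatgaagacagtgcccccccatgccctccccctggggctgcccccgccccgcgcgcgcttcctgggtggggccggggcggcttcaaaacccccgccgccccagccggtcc
Inhba: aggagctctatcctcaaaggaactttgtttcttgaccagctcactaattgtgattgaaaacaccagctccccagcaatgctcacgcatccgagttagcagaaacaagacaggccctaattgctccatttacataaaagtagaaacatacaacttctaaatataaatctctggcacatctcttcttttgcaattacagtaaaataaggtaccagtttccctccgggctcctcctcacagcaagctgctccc
Ltbp1: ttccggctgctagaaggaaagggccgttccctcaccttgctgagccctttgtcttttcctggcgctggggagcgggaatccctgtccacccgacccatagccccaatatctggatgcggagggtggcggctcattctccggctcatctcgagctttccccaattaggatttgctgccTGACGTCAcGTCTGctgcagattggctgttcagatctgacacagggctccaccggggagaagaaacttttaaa
Tgfbr2: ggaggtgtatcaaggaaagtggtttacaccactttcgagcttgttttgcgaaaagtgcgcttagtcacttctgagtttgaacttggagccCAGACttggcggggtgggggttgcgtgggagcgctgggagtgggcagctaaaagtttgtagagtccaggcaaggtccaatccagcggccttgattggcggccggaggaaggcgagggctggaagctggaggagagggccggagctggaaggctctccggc
Tgfb2: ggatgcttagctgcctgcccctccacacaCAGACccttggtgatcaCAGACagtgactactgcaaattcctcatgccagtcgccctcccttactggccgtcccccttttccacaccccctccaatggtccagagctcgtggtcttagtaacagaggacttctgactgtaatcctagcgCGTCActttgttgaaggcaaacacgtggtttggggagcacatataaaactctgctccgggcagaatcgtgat
The windows of Tgfb1 (75.2% G and C) and Inhba (43.2%) held no match to either. That of Ltbp1 held 1 Smad box and 2 half-sites that overlap each other on opposite strands, 1 base away from the Smad box. Tgfbr2 had 1 Smad box, and Tgfb2 had 2 Smad boxes and 1 half-site. Over the 8 member windows the Smad box was in 5 and the half-site in 2, against 42.2% and 17.8% of 32851 windows of the same length. The AP-1 site TGACTCA and the TEAD site GGAATG, in 4.5% and 12.6% of all windows, were in none of the 8.

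Of 85 further genes of the pathway, 72 could be tested. In dense cells 17 of these were called higher and 23 lower in KO than in rescue cells (55.6%, against 61.6% of all genes), and in sparse cells 20 and 29 (68.1%, against 48.8%). Their median difference was -0.14 in dense and -0.09 in sparse cells, against 0.08 and 0.03 over all genes. With density 7 were called higher and 11 lower in dense KO cells (25.0%, against 10.9%) and 11 higher and 19 lower in dense rescue cells (41.7%, against 40.0%). The count of 18 in KO cells was 11, 4, 6, 10 and 6 without KO dense 1, KO dense 2, KO sparse 1, KO sparse 2 or KO sparse 3. The interaction term was called positive for 13 and negative for 6 (26.4%, against 20.7% of all genes).

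Among 25 genes known to respond to TGF-beta, 5 were called higher and 10 lower in dense KO than in dense rescue cells (31.9% and 29.7% of all genes). In sparse cells 5 and 14 of them were called higher and lower (23.2% and 25.6% of all genes). Their median was -0.28 in dense and -0.94 in sparse cells. Tgfbi, a matrix protein induced by TGF-beta, had the largest fall at both densities, -8.90 in dense (SE 0.42, limma adjusted p = 4.39e-09) and -3.89 in sparse cells (SE 0.42, adjusted p = 9.44e-06), where 2 of 3 KO arrays were well above background. Cnn1, the actin-binding protein calponin of contractile cells, had the largest rise, 3.50 and 2.46 (SE 0.20 each, adjusted p = 2.9e-08 and 8.58e-07). Of the 25, 5 were called higher and 9 lower in dense than in sparse rescue cells, where 40.0% of all genes were called. Among them was Tgfbi at 5.12 (SE 0.42, adjusted p = 5.98e-06). In KO cells 3 were called higher and 7 lower, where 10.9% of all genes were called. They were led by Lox, a collagen cross-linking enzyme, at 1.05 (SE 0.28, adjusted p = 0.0335), and by the matricellular protein Ccn2 at -1.76 (SE 0.34, adjusted p = 0.00921), which spike-in scaling turned to 0.74. The Lox call ended without KO dense 2 or 3 or KO sparse 1 or 3 (adjusted p between 0.0608 and 0.13), with quantile scaling, normexp or no filter on dim probes, and the Ccn2 call with normexp (0.0503). The density response differed between the lines for 11 of the 25, against 20.7% of all genes. The interaction term was called positive for 7 and negative for 4, where 11.3% and 9.46% of all genes were called. The median term of the 25 was 0.52, against 0.04 over all genes. Tgfbi had the most negative term, at -5.01 (SE 0.59, limma adjusted p = 0.000276).

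Of 12 genes for latency, storage and activation, 2 were called higher and 6 lower in dense KO cells and 4 and 6 in sparse KO cells, relative to rescue cells (median -0.64 and -1.07), where 61.6% and 48.8% of all genes were called. Fbn2, which encodes the microfibril protein fibrillin 2, was not well above background on any rescue array and was at least 75.7-fold higher in dense and 78.8-fold higher in sparse KO cells (limma adjusted p = 7.32e-10 and 4.59e-09). Emilin1, a matrix protein that holds back TGF-beta processing, lay lowest, at -3.97 and -3.60 (SE 0.42 each, adjusted p = 6.06e-06 and 2.03e-05). Dcn, which encodes the ligand-binding proteoglycan decorin, was higher by 4.55 (log2) in dense than in sparse rescue cells (SE 0.26, adjusted p = 1.04e-06), and its interaction was -4.35 (adjusted p = 4.53e-05). With density in KO cells, where 10.9% of all genes were called, Ltbp3 (0.80, SE 0.20, adjusted p = 0.0257) was the 1 gene called higher and Ltbp2 (-1.71, SE 0.45, adjusted p = 0.034, turned to 0.79 by spike-in scaling) the larger fall of the 2 called lower. The Ltbp3 call ended without any 1 of the 6 KO arrays (adjusted p between 0.0571 and 0.0821), with normexp or with the mean of all probes (0.34), and that of Ltbp2 without any KO array except KO dense 3 (0.0562 to 0.104) and with quantile or median scaling, normexp or no filter.

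Among 10 other ligands and antagonists of the activin branch, 4 were called higher and 3 lower in dense and 4 and 5 in sparse KO cells, relative to rescue cells, where 61.6% and 48.8% of all genes were called. Lefty1, an inhibitor of nodal, was well above background on KO arrays only and was at least 74.2-fold higher in dense and 44.3-fold higher in sparse KO cells (limma adjusted p = 3.23e-09 and 5.21e-09). The largest falls were Gdf9 in dense cells (-3.30, SE 0.41) and Gdf15 in sparse cells (-1.90, SE 0.26; -0.18 with normexp background correction, adjusted p = 0.803). Inhbb, the second activin beta subunit, fell by 3.07 in dense against sparse rescue cells (log2 -3.07, SE 0.36, adjusted p = 5.62e-05), the same direction as Inhba. Of 6 other receptors, 3 were called higher in KO cells at each density and 1, Eng, lower in dense KO cells (-1.29, SE 0.34, adjusted p = 0.00627), a call that normexp background correction ended (-0.23). Bambi, a decoy receptor without a kinase, was at 5.37 in dense cells (SE 0.19, adjusted p = 3.88e-10), and the activin receptor gene Acvr2b, below background on all rescue sparse arrays, was at least 26.9-fold higher in sparse KO cells (adjusted p = 7.31e-08).

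Between the lines, 61.6% of all genes were called in dense and 48.8% in sparse cells, and with density 10.9% in KO and 40.0% in rescue cells. Few of the Smads and their partners were called. Of 9, none was called in dense KO against dense rescue cells and 1 in sparse cells, Trim33 at 0.81 (SE 0.24, limma adjusted p = 0.0157), which spike-in scaling turned to -0.66. That call also ended with median scaling, normexp, the slide as a block, or without KO sparse 1 or rescue sparse 3 (adjusted p between 0.0611 and 0.23). None was called with density in KO cells, and in rescue cells Smad3 was at 0.84 (SE 0.24, adjusted p = 0.0156) and Smad2 at -0.53 (SE 0.17, adjusted p = 0.0282), which spike-in scaling turned to 0.22. The Smad3 call ended with normexp, with the mean of all probes (0.07), or without rescue dense 1 or rescue sparse 1, and that of Smad2 with quantile or median scaling, normexp, or without rescue dense 1 or 2 or rescue sparse 1 or 3. Of 10 intracellular inhibitors, 3 were called higher and 3 lower in dense and 3 and 4 in sparse KO cells. The co-repressor gene Tgif2 rose most at both densities (3.71 and 3.78, SE 0.27 each, adjusted p = 2.44e-07 and 2.76e-07), and the ubiquitin ligase genes Smurf1 in dense cells (-2.04, SE 0.25) and Nedd4l in sparse cells (-1.77, SE 0.38) fell most. Smad6, the other inhibitory Smad, was at 1.29 in dense minus sparse KO cells (SE 0.34, adjusted p = 0.0334) and had a positive interaction of 2.42 (SE 0.48, adjusted p = 0.00489), as Smad7 did. Its KO density call ended without any KO array except KO dense 1 (adjusted p between 0.0617 and 0.111), with normexp, no filter or the slide as a block, while its interaction remained called under each array left out.

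**Figure D5:**
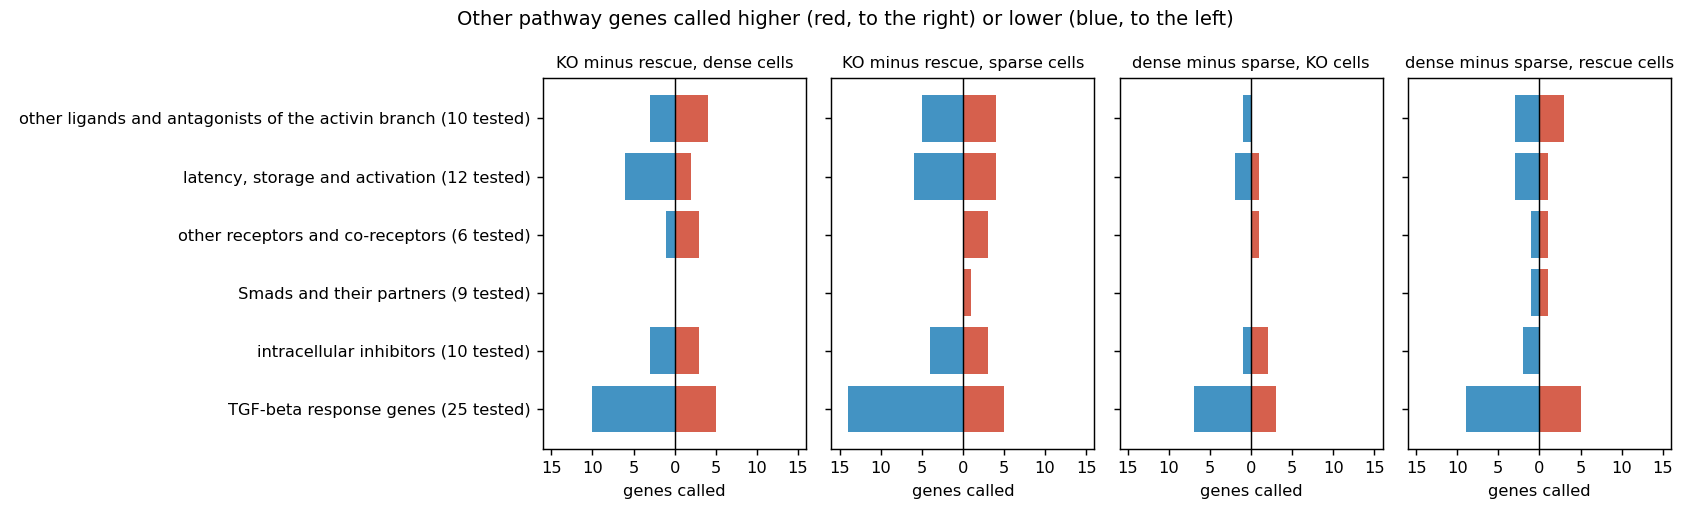
Number of other pathway genes called higher (to the right) or lower (to the left) in each of 6 lists (limma adjusted p under 0.05), for KO minus rescue in dense and sparse cells and dense minus sparse in KO and rescue cells. Of all genes, 61.6%, 48.8%, 10.9% and 40.0% were called in these comparisons, in the same order. Among the 25 response genes more were called lower than higher in every panel, and none of the 9 Smads and partners was called in dense KO against dense rescue cells or with density in KO cells; with spike-in scaling 70 of the 72 genes were called with density in KO cells.

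For the 8 members well above background on all 12 arrays, the genes with the most similar pattern were found by the root mean square difference over the 12 arrays after centring each gene on its mean. The nearest gene differed by 0.198 for Tgfb1 (Slc50a1), 0.174 for Tgfbr2 (Naa60), 0.264 for Smad7 (Mis18a) and 0.397 for Inhba (Ccl7), where the members' own root mean square around their mean was 0.95, 0.606, 0.696 and 1.85. Helz2 was nearest to both Tgfb2 (0.158) and Tgfb3 (0.215). Ltbp1, with the largest root mean square of the 8, was 0.547 from Il18rap, its nearest gene, and Tgfbr1, with the smallest, 0.13 from Rnf2. Ccl7, like Inhba, was lower in KO than in rescue cells (-3.45 dense and -2.11 sparse, limma adjusted p = 1.78e-05 and 0.00125) and lower in dense than in sparse cells of both lines (-2.56 in KO and -1.21 in rescue, adjusted p = 0.00453 and 0.0363). These genes were picked for their likeness over the same arrays, so their differences are descriptions.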

How the data were processed

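Total RNA of 12 cultures was labelled with Cy3 and hybridised to one-colour Agilent mouse arrays. The spot intensities were deposited as scanner output of Feature Extraction 10.5.1.1, per the file headers (Agilent Feature Extraction 10, per the submitters' processing notes), background-subtracted and detrended within each array but not scaled to each other. The value table, deposited as well, has log2 values of the authors whose normalization is not given in the sources used here. Its column medians were 8.38 to 8.39, and its values were used only as an alternative, because the lines of the 4 columns of day 3 were exchanged relative to the scanner files. The direction and log scale of the table were checked against the scanner values, and its centring is not known.

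Spots flagged as outliers (79 to 265 per array) and control spots were left out. Spots of a probe were averaged after log2, and the 75th percentile of the array was subtracted. A probe was kept where every array of any 1 group had it well above background, which left 25931 of 41174. RefSeq accessions in the design gave 1 gene symbol for 24375 probes, and the brightest kept probe stood for each gene (12438 genes). limma 3.58.1 in R 4.3.3 fitted the means of the 4 groups over all 12 arrays, tested 5 contrasts and adjusted p-values by Benjamini and Hochberg over these genes. The fit was tested on simulated data. A group with no array above background gave a bound, set per array by the probe's own signal or the array's lowest signal well above background, whichever was higher. Exact permutation of 3 against 3 cultures cannot give a p below 0.1, so no such test was used. Precision is limited by the number of arrays. The labels describe separate seedings on each of 3 experimental days and no separately derived lines, so p-values measure the spread between days within 1 line.

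The day is shared across groups by the labels, so replicate numbers pair the cultures. Same-day deviations from the group means correlated by -0.037 to 0.296, over 0.1 in 11 of 18 pairs. The day as a block, the slide as a block, quantile, median and spike-in scaling, normexp (offset 50, on median signals, since the files hold no mean signal), other filters and probe rules, and leaving out each array were tried as alternatives. Members and gene lists were chosen with earlier results of these data known. Named in the text are the 10 members, the called gene with the largest rise and fall of each pathway list, nearest genes by pattern, and the targeted gene Ptk2. One gene that this rule names is not reported here. Promoter windows were searched with Python 3.11.15, and figures drawn with matplotlib 3.10.9.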

Additional observations from a re-analysis of the deposited data

Results flagged for a closer look

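The density response (dense minus sparse) differed between KO and rescue cells for 2 of the 10 members by the interaction term of the limma model. This share is near the 20.7% of all genes with a called term. For Fst the difference was 4.38 on the log2 scale (SE 0.50, adjusted p = 0.000235), with 1.58, 1.19 and 1.58 in KO cells and -3.57, -3.48 and -1.74 in rescue cells on the 3 days. The rescue dense arrays give only a bound for Fst, so the size of this term is not fixed. With normexp background correction the Fst term did not pass the test. For Smad7 it was 2.05 (SE 0.41, adjusted p = 0.00544), with 0.22, 0.63 and 0.34 in KO cells and -1.60, -1.24 and -2.13 in rescue cells.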

How the results depend on the processing

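Over the settings other than leaving out an array, 485 member differences kept their direction and side of the threshold, 46 lost the call, 18 gained one and 41 changed sign. These settings, also used for the named pathway genes, include the deposited value table as labelled. In that table the lines of the day 3 columns were exchanged relative to the scanner files. No member was called there, so its lost calls are part of the 46. Leaving out each array gave 562, 21, 7 and 10. The differences of the named pathway genes were kept in 439 cases, lost the call in 104 and changed sign in 9, and when arrays were left out 499 were kept and 65 lost. The causes were not tested. With the experimental day as a replicate block, the member counts were 7 in sparse and 7 in dense KO against rescue cells, 4 and 7 with density in KO and rescue cells, and 2 for the interaction. This pairing added the calls of Smad7 in sparse cells and Ltbp1 with density in rescue cells, ended that of the Fbn2 interaction (adjusted p = 0.05), and changed no other call named in the text. The Fbn2 interaction was called positive in the main fit. Since Fbn2 was not well above background on any rescue array, the size of that term is not fixed.

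For member genes, no call was made from the deposited value table as labelled in any of the 5 comparisons (0 in each), and 0 of the other pathway genes were called; without day 3, an alternative chosen after seeing the data, it gave 6, 8, 2, 6 and 1 member calls (sparse, dense, KO density, rescue density, interaction). With density in KO cells the member count of 4 was 8 with spike-in scaling, 1 with normexp, 2 in the deposited table of days 1 and 2, and 1 to 4 with an array left out. The interaction count of 2 was 5 with spike-in scaling and 1 with normexp, with probes above background on all 12 arrays, and in the deposited table of days 1 and 2. Under the filter on all 12 arrays, Fst, well above background on 9, was not tested. For other pathway genes the KO density count of 18 was 70 with spike-in scaling, 1 with normexp, 10 with no filter, 9 in the deposited table of days 1 and 2, and 4 to 19 with an array left out. Their interaction count of 19 was 53, 7 and 10 with spike-in scaling, normexp and the deposited table of days 1 and 2, and 11 to 20 with an array left out (11 without KO dense 2).

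Scaling moved the share of calls that were higher. Of all genes called in sparse KO against rescue cells 47.6% were higher, against 30.6% with the array median and 6.50% with spike-ins; in dense cells 51.8%, against 62.1% with spike-ins. With density in KO cells it was 49.8%, against 63.1% (quantile), 80.9% (median), 33.3% (normexp) and 100.0% to 1 decimal (spike-ins). In rescue cells it was 47.5%, against 90.6% with spike-ins, and for the interaction 54.4%, against 70.9% (median) and 98.9% (spike-ins).

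Signs changed as follows. In sparse KO minus rescue cells, spike-in scaling gave Tgfb2 -0.76, Tgfb3 -0.46, Tgfbr1 -1.32, Tgfbr3 -1.07 and Trim33 -0.66. Fst was 0.49 with normexp, 0.19 with the slide block and -0.41 to 0.0692 with an array left out. Tgfbr1 was -0.16 with the median, -0.0092 with normexp and -0.0033 in the deposited table, and Tgfbr3 -0.33 there and -0.22 without day 3. In dense cells Tgfb2 was -0.0076 with quantile scaling, -0.0036 with the median and -0.11 to 0.24 with an array left out.

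With density in KO cells, spike-in scaling gave Inhba 0.36, Ltbp1 0.95, Tgfbr3 1.64, Ccn2 0.74, Smurf1 0.69, Ltbp2 0.79 and Gdf11 1.27. The mean of all probes gave Tgfbr1 -0.51 and Tgfbr2 -0.52, and the deposited table Tgfbr2 -0.21, Tgfbr3 0.0297 and Smad7 -0.30. With an array left out Tgfb1 ranged between -0.0034 and 0.34, and Tgfbr2 between -0.0086 and 0.19. In rescue cells Tgfbr1 was -0.43 by the mean of probes and -0.0048 to 0.20 with an array left out. Tgfbr2 was 0.042 with quantile scaling, 0.68 with spike-ins, 0.42 in the deposited table, 0.435 without day 3, and -0.24 to 0.0683 with an array left out. Spike-in scaling gave Smad2 0.22 and Bambi 0.15.

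For the interaction, spike-in scaling gave Tgfb1 0.97, Tgfb2 1.096, Tgfb3 1.07, Inhba 1.48, Ltbp1 1.11 and Tgfbr3 0.33, and normexp Inhba 0.19, Ltbp1 0.30 and Fbn2 -0.18. Inhba was -0.63 to 0.0735 with an array left out. The deposited table gave Ltbp1 0.099, Tgfbr2 -0.62 and Tgfbr3 0.0073, and without day 3 Ltbp1 0.13, Tgfbr2 -0.24 and Fbn2 -0.0705. The mean of probes gave Tgfbr1 -0.0716 and Tgfbr2 -0.29. Signal over background limits Fst in rescue dense cells and Tgfbr3 on 2 of 12 arrays.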

Other observations

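Markers of other cell types also differed between the groups, and their part in the results above was not tested. The summed level of 7 epithelial markers, in multiples of each array's 75th percentile, was 22.5 to 26.8 in KO dense and 0.270 to 0.343 in rescue dense cultures, and 8.70 to 14.1 in KO sparse and 0.902 to 1.88 in rescue sparse cultures. Epcam, Cdh1, Cldn4 and Esrp1 among them were not well above background on any KO dense array, and Epcam, Cldn4 and Esrp1 on any rescue array. Of the 7, 2 were well above background on all KO dense arrays and 2 on all KO sparse arrays. Of the 4 that could be tested, 1 was called higher and 1 lower in KO than in rescue cells at each density. Over all genes, 61.6% were called in dense and 48.8% in sparse cells. The 6 smooth muscle markers, all well above background in every group, summed to 115 to 232 in KO dense and 66.8 to 85.8 in rescue dense cultures, and to 264 to 328 in KO sparse and 185 to 219 in rescue sparse cultures. The 5 macrophage markers on the array summed to 0.344 to 0.424 in KO dense and 1.90 to 2.56 in rescue dense cultures, and to 0.526 to 0.885 in KO sparse and 3.23 to 3.78 in rescue sparse cultures, with Ptprc not well above background on any array.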
